A study of Homo sapiens with 24 samples.

Results

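The last hour of a dexamethasone time course was examined by comparing the libraries taken at 3 h with those taken at 2 h. These were 12 of the 24 libraries of the series, 6 at each time, chosen by treatment time alone and from 3 lines with 2 libraries per line and time. The assay was 4sU-seq, which sequences newly transcribed RNA, in U2OS, a human osteosarcoma line, carrying the glucocorticoid receptor (GR, the product of NR3C1) joined to HaloTag, a tag labelled with fluorescent ligands. The lines expressed wild-type GR (wt), the K492A separation-of-function mutant with reduced RNA binding (SoF), or the R470A control mutant with reduced DNA binding (Ctrl). In vitro, as the paper reports, K492A also lost some DNA affinity, though less than RNA affinity. R470A kept its RNA affinity and was used to control for the loss of DNA affinity. Each line was a stable PiggyBac pool, selected and sorted by its HaloTag dye, with GR driven by a CMV promoter. With a single pool per construct, an effect of the construct and one of the pool cannot be told apart. All 12 libraries received 100 nM dexamethasone, a synthetic glucocorticoid, for 2 h or 3 h in fresh medium, with 200 µM 4-thiouridine (4sU) present for the last 1 h. Vehicle libraries exist for 0 h only, so time in dexamethasone and time since the medium change cannot be told apart. The 2 h libraries therefore hold RNA made between 1 and 2 h, and the 3 h libraries RNA made between 2 and 3 h. The libraries of a replicate pair were pulled down together, so pulldown and group cannot be told apart, and nothing beyond the replicate number says how replicates were grown. The p-values then measure the spread between these libraries, which may be technical.

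GR waits in the cytoplasm bound to chaperones, moves to the nucleus once it binds hormone, and acts at glucocorticoid response elements and through other factors. It switches on genes such as FKBP5 and PER1 and dampens inflammatory genes driven by NF-kB and AP-1. Because 4sU marks RNA while it is being made, changes follow transcription more closely than total RNA does, and in a long gene polymerase that starts at the promoter takes time to reach the far exons. In bulk samples such as these, fewer cells of a type and less RNA per cell cannot be told apart.

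Total exon counts of the 12 libraries lay between 9501281 and 15060777. Paired libraries of a group varied 5.82 to 11.1 times as much as Poisson counting predicts (chi-square divided by its degrees of freedom). On the first principal component, which held 23.2% of the variance and of whose spread time explained 92.6%, replicate 2 of wt at 2 h lay at -5.58, the 5 other 2 h libraries between -33.7 and -20.4, and the 3 h libraries between 17.7 and 25.1. Without that library the step had 4370 called genes instead of 3886. Osteosarcoma markers summed to 1691 to 2290 CPM at 2 h and 1853 to 2802 CPM at 3 h (CPM are counts scaled to a common total with TMM factors), with VIM, COL1A1, SPARC and CD44 well detected, TWIST1 at 0, and SP7, IBSP, COL1A2 and NT5E near 0. Blood markers summed to at most 8.30 CPM in any library, with HBB and HBA1 at 0, and endothelial and muscle markers to at most 13.5 CPM. Epithelial markers summed to 520 to 692 CPM at 2 h and 406 to 549 CPM at 3 h. These were mostly KRT8 and KRT18, and 5 of 8 tested members fell (1 without the Ctrl line), while KRT19, ESRP1, CLDN7 and GRHL2 were near 0. Among those 5, chosen after their values were seen, the log2 change was -0.40 in KRT8, -0.33 in KRT18 and -1.33 in CDH1. CDH1 was low, with a mean of 2.62 CPM over the 12 libraries. The part of these 5 genes in the changes described next was not tested.

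Between 2 h and 3 h, 3886 of 21339 tested genes changed (18.2%) at a Benjamini-Hochberg adjusted p under 0.05 in edgeR's quasi-likelihood test, with the line as a block. Of these, 2089 rose (9.79% of the genes tested) and 1797 fell (8.42%). Most steps were small. The median size was 0.44 on the log2 scale in rising genes and 0.49 in falling genes, and a log2 change of at least 1 was reached by 142 rising genes (0.665%) and 217 falling genes (1.02%). All 6 libraries at 3 h lay above all 6 at 2 h in 647 genes (3.03%) and below them in 454 (2.13%). The median log2 change over all tested genes was -0.01, and 3883 genes were called with DESeq2's size factors in place of TMM. The count was 1842 without the replicate 1 libraries and 3133 without the replicate 2 libraries.

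The 10 rising protein-coding genes with the smallest p all spanned more than 90 kb of genome, from ARRB1 at 91.6 kb to MLLT10 at 219 kb. CECR2, a bromodomain subunit of chromatin-remodelling complexes (ENSG00000099954.19, chr22:17359949-17558151 in hg38), had the smallest p of all. Its level was 16.1, 19.9 and 26.0 CPM (lowest, median and highest of 6 libraries) at 2 h and 42.3, 64.0 and 88.1 CPM at 3 h. The ranges did not overlap, and the log2 change was 1.63 (SE 0.09, edgeR adjusted p = 6.24e-09). DNMT3A, which places new DNA methylation, went from 25.1, 29.7 and 39.5 CPM to 62.5, 98.8 and 120.7 CPM, a log2 change of 1.63 (SE 0.11, edgeR adjusted p = 1.58e-08). CHD7, an ATP-dependent chromatin remodeller, went from 77.4, 81.3 and 103.6 CPM to 143, 177 and 200.3 CPM, a log2 change of 1.01 (SE 0.07, edgeR adjusted p = 2.56e-08). In both genes the lowest 3 h library stood above the highest 2 h library. MLLT10, a cofactor of the histone methyltransferase DOT1L, had the smallest step of the 10, from 55.3, 58.1 and 66.6 CPM to 96.7, 103 and 117 CPM, with a log2 change of 0.84 (SE 0.06). Its median was 105 CPM at 0 h and 107 CPM at 1 h, so at 3 h MLLT10 was back near those levels.

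The largest rise of any called gene belonged to PPARGC1B, the transcriptional coactivator PGC-1 beta (chr5:149730298-149855022, hg38). It went from 3.08, 4.66 and 7.02 CPM to 20.5, 31.8 and 38.2 CPM, a log2 change of 2.64 (SE 0.18, edgeR adjusted p = 2.56e-08). PGBD5, a human gene derived from a piggyBac-type transposase (chr1:230314490-230426332, hg38), went from 2.19, 4.11 and 7.20 CPM to 15.9, 20.2 and 31.5 CPM, a log2 change of 2.46 (SE 0.16). PAQR5, a membrane progesterone receptor, went from 3.31, 4.54 and 6.12 CPM to 13.5, 17.7 and 24.9 CPM, a log2 change of 2.01 (SE 0.14). In all 3 genes the 3 h libraries lay above the 2 h libraries without overlap. The other 3 were ARRB1, CTDSPL and ZNRF3. ARRB1, the receptor adaptor beta-arrestin 1, had a log2 change of 1.42 (SE 0.09). CTDSPL, a small phosphatase, went from 20.5, 23.1 and 32.6 CPM to 49.1, 59.1 and 63.5 CPM, with a log2 change of 1.23 (SE 0.08). ZNRF3, a ubiquitin ligase that removes Wnt receptors, had a log2 change of 1.23 (SE 0.09). Genes annotated on the opposite strand overlap CECR2, CHD7, ARRB1, PAQR5, ZNRF3 and MLLT10, so their levels are less certain, since only the title of the count table says that strand was used.

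The promoters of CECR2 and PGBD5 are shown because CECR2 had the smallest p and PGBD5 followed PPARGC1B as the next largest rise of the step. They are the 250 bases before the RefSeq start (GRCh38.p14), at chr22:17359699-17359948 on the plus strand and chr1:230426333-230426582 on the minus strand, written 5′ to 3′.
CECR2: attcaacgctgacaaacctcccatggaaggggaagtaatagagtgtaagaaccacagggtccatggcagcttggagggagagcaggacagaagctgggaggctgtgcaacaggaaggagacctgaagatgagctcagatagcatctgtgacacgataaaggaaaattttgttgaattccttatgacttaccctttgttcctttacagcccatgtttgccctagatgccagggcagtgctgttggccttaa
PGBD5: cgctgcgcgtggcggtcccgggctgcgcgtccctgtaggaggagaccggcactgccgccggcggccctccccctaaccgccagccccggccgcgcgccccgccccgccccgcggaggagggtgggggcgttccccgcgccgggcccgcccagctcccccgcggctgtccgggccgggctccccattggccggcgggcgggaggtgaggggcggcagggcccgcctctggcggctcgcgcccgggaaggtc
The motifs searched on both strands were a single arm of the glucocorticoid response element (AGAACA), the full inverted element, the AP-1 site (TGANTCA), the cyclic AMP element core (TGACGTC), the E-box (CACGTG) and the TATA box (TATAAA). None of these letters occurred in either window. Over all 27305 RefSeq promoters of the same length, the share holding each motif was 12.4% for the single arm, 0.00366% (1 promoter) for the full element, 6.6% for AP-1, 3.29% for the cyclic AMP core, 6.49% for the E-box and 11.1% for the TATA box. Among the 11237 promoters of tested protein-coding genes, the shares in the same order were 7.67%, 0%, 4.05%, 5.1%, 8.85% and 5.75%. Matches of different motifs, or on both strands, were counted separately where they overlapped.

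**Figure D1:**
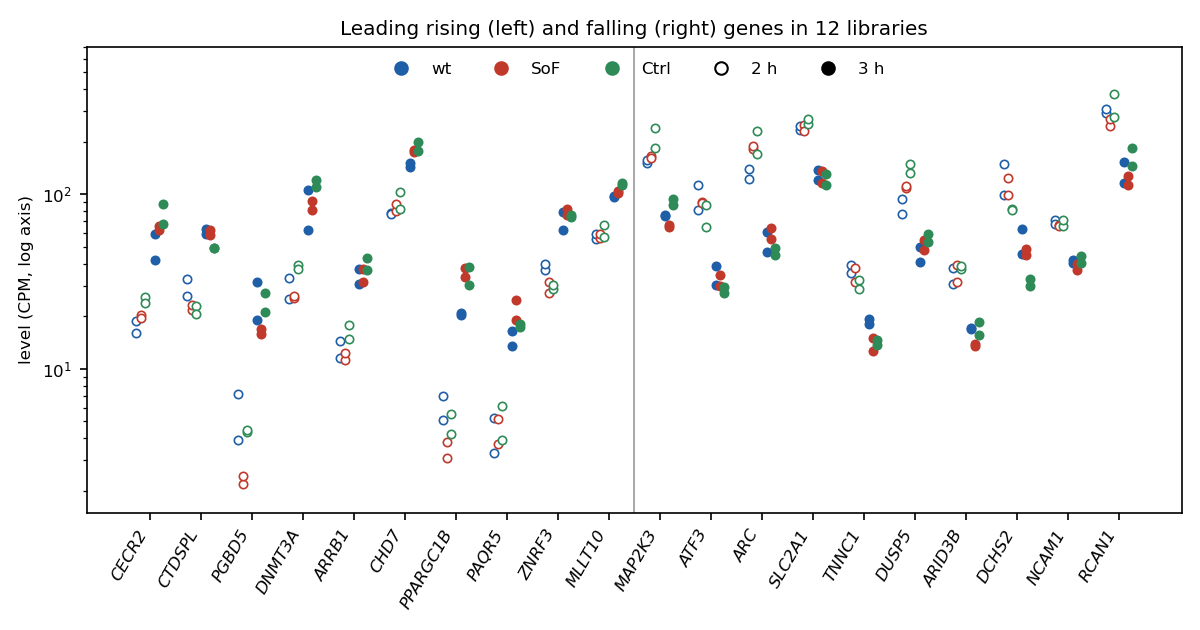
Levels of the 10 rising and 10 falling protein-coding genes with the smallest p, in CPM on a log axis, 1 point per library, open at 2 h and filled at 3 h and coloured by line. In each of the 20 genes the 6 open points and the 6 filled points do not overlap.

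The 10 protein-coding genes that fell with the smallest p had spans from 2.94 to 317 kb with a median of 44.5 kb, against a median of 124 kb in the 10 rising genes. MAP2K3, the kinase that activates p38 (chr17:21284672-21315232, hg38), went from 152, 165 and 240.2 CPM at 2 h to 65.2, 75.8 and 94.4 CPM at 3 h. The log2 change was -1.19 (SE 0.07, edgeR adjusted p = 1.32e-08). ATF3, a stress-induced transcription factor (chr1:212565334-212620777, hg38), went from 65.2, 87.7 and 114 CPM to 27.2, 30.1 and 38.9 CPM, a log2 change of -1.46 (SE 0.09, edgeR adjusted p = 1.32e-08). ARC, an activity-regulated immediate-early gene, went from 122, 177 and 232 CPM to 45.2, 52.4 and 63.8 CPM, and its log2 change of -1.66 (SE 0.11) was the largest of the 10. In all 3 genes the highest 3 h library lay below the lowest 2 h library.

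SLC2A1, the glucose transporter GLUT1, went from 231, 249.7 and 270.5 CPM to 114, 126 and 139 CPM, a log2 change of -0.96 (SE 0.07). DUSP5, a nuclear phosphatase of ERK, went from 77.5, 110.1 and 149 CPM to 41.1, 51.6 and 59.0 CPM, a log2 change of -1.11 (SE 0.08). RCAN1, an inhibitor of calcineurin, went from 245, 286 and 376 CPM to 114, 137 and 184 CPM, a log2 change of -1.07 (SE 0.09), and it overlaps a same-strand gene (ENSG00000288711.1) with which it may share reads. DCHS2, a protocadherin, had a log2 change of -1.27 (SE 0.10), and NCAM1, the neural cell adhesion molecule, of -0.73 (SE 0.06). TNNC1, the slow-muscle and cardiac troponin C, had a log2 change of -1.13 (SE 0.09), and ARID3B, a DNA-binding protein, of -1.17 (SE 0.09). All of these fell in each line, as their choice required, and without overlap between the times. SLC2A1, DCHS2 and NCAM1 have annotated genes on the opposite strand.

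The promoter of MAP2K3 is shown as that of the falling gene with the smallest p, at chr17:21284461-21284710 on the plus strand (RefSeq, GRCh38.p14), with an AP-1 site in capitals 41 to 35 bases before the RefSeq start.
MAP2K3: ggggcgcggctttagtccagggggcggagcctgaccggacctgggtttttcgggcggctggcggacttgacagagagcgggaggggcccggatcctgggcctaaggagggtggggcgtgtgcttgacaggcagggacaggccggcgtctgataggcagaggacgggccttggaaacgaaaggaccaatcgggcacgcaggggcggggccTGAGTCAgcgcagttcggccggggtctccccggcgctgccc
This window runs into the GENCODE gene model, whose first base lies within the site. The match is a description of letters and not evidence that a factor binds there.

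The long noncoding RNA genes with the smallest p were 3 that rose and 3 that fell. The rising ones each lie within a longer protein-coding gene on the same strand, so their reads cannot be told apart from those of the host. ENSG00000280434.1 lies within PARVB and went from 1.98, 2.93 and 3.98 CPM to 4.17, 7.95 and 11.7 CPM, and ENSG00000276115.1 and ENSG00000274964.1 lie within BICD1, with log2 changes of 1.36 and 1.23. Of the falling ones, SH3RF3-AS1 went from 10.4, 11.6 and 14.4 CPM to 2.58, 3.28 and 5.37 CPM, a log2 change of -1.67 (SE 0.14, edgeR adjusted p = 1.54e-07). GASAL1 had a log2 change of -1.22 (SE 0.10), and ENSG00000289579.1, which overlaps CAVIN1, of -1.20 (SE 0.11). Over the 4334 tested long noncoding genes, 144 rose (3.32%) and 377 fell (8.7%), and over the 14270 tested protein-coding genes 1864 rose (13.1%) and 1255 fell (8.79%).

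Rising genes spanned more of the genome than other genes did. Among protein-coding genes called rising the median genomic span, from the first to the last base of the gene, was 71.9 kb, against 34.7 kb in all tested and 33.2 kb in those called falling. Among genes with a log2 rise of at least 1 it was 103 kb, and among those with a log2 fall of at least 1 it was 20.2 kb. The share of genes rising was 5.4% below 5 kb (1204 genes), 7.87% at 10 to 20 kb and 12.9% at 40 to 60 kb. It reached 26.3% at 100 to 150 kb, 28.3% at 150 to 200 kb and 28.1% at 200 to 300 kb, then dropped to 14.2% at 300 to 500 kb and 6.98% above 500 kb (258 genes). The whole window from 100 to 300 kb held 2408 of the 14270 tested protein-coding genes. Of these, 656 rose (27.2%, against 13.1% of all protein-coding genes) and 198 fell (8.22%, against 8.79%). The window also held 60 of the 118 genes with a log2 rise of at least 1. Up to 20 kb, 343 of 4942 rose (6.94%) and 478 fell (9.67%). Above 300 kb, 75 of 659 rose (11.4%) and 97 fell (14.7%). These shares describe genes of one fit, and genes are not independent replicates.

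In each line taken alone, the window from 100 to 300 kb held 149 of 260 protein-coding rises in wt, 293 of 700 in SoF and 175 of 277 in Ctrl. It held 2408 of the 14270 tested protein-coding genes. Genes with a longer span also have longer summed exons, so the shares were taken again after dividing genes into 4 equal bins of summed exon length. Rising shares at 100 to 300 kb were 13.9%, 23.2%, 27.7% and 29.6% from the bin of shortest to that of longest exons, against 6.37%, 9.72%, 12.8% and 13.7% up to 100 kb. The share was higher in the longer-span group in every bin. The median log2 change ran from -0.02 below 5 kb to 0.11 at 150 to 200 kb and -0.11 above 500 kb. Without replicate 2 of wt at 2 h the window from 100 to 300 kb held 723 rising genes, without the replicate 1 libraries 382 and without the replicate 2 libraries 628.

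**Figure D2:**
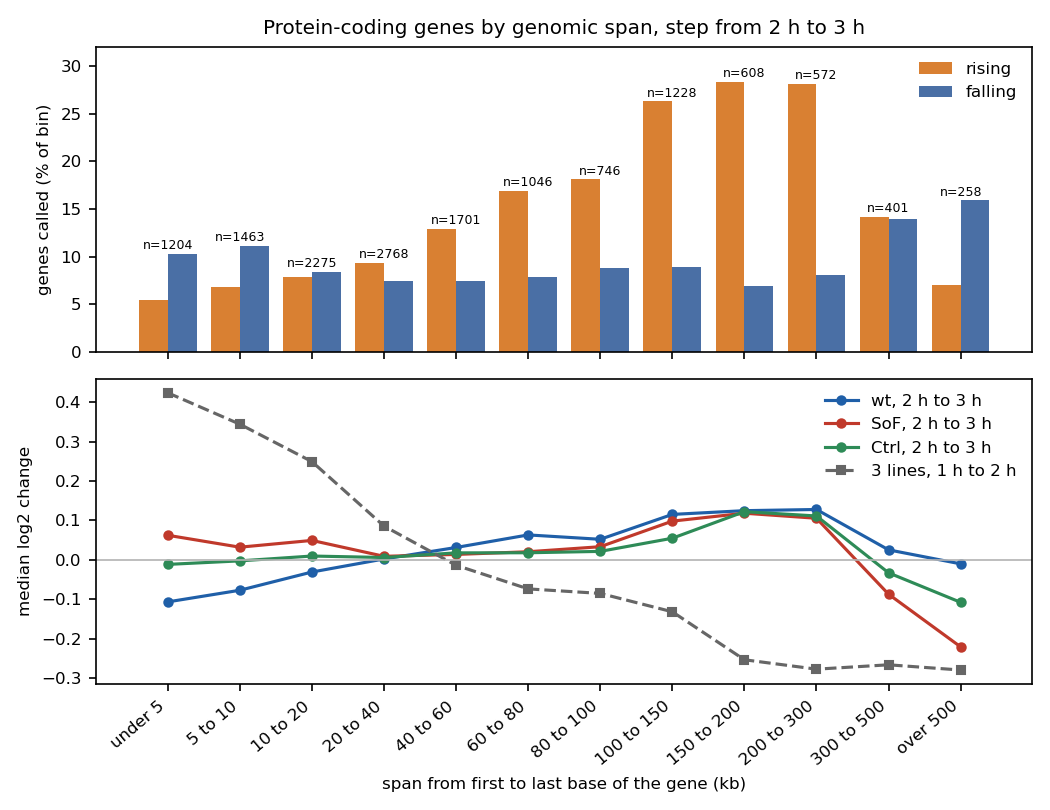
Top, the share of tested protein-coding genes called rising or falling between 2 h and 3 h, in % by bin of genomic span, with the number of genes above each bin. Bottom, the median log2 change per bin in each line from 2 h to 3 h and, dashed, in the 3 lines from 1 h to 2 h. The rising share is 5.4% below 5 kb and 28.3% at 150 to 200 kb.

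The step from 1 h to 2 h was measured in a fit of the 18 libraries at 1, 2 and 3 h, which called 11715 of 21821 genes for it (53.7%). Its median log2 change was 0.42 below 5 kb, 0.09 at 20 to 40 kb, -0.13 at 100 to 150 kb and -0.28 at 200 to 300 kb. Both steps use the 2 h libraries, so a level that is off at 2 h moves them in opposite directions. Only the direct contrast of the steps was tested, and such a level enters it as well. The contrast therefore cannot tell a change between the steps from a level that is off at 2 h. It called 6685 of 21821 genes (30.6%), of which the later step was the higher in 3055 (14%) and the lower in 3630 (16.6%). The 4 genes with the smallest p on the higher side all span over 180 kb. In MLLT10 the log2 change was -0.90 from 1 h to 2 h and the later step exceeded it by 1.75 (edgeR adjusted p = 9.17e-11). In CHD9, a chromatin remodeller, the values were -0.93 and 1.56, in NUMB, a regulator of Notch, -0.66 and 1.58, and in NBEAL1, a BEACH-domain protein, -0.85 and 1.33. CECR2 and CHD7 had earlier changes of -0.35 and -0.71 and DNMT3A of -0.49. The median level at 0, 1, 2 and 3 h was 160, 187, 98.6 and 153 CPM in CHD9 and 114, 120, 67.0 and 98.1 CPM in NBEAL1. CHD9, NBEAL1 and MLLT10 thus stood below their 0 h medians at 3 h, while NUMB, CECR2, CHD7 and DNMT3A stood above theirs.

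On the lower side the leading genes were VASN, LFNG, SEPTIN5 and ENSG00000284874.1. VASN, a membrane protein that binds TGF-beta, had log2 changes of 2.39 from 1 h to 2 h and -0.94 from 2 h to 3 h, a difference of -3.33 (edgeR adjusted p = 3.45e-13). LFNG, a glycosyltransferase acting on Notch, changed by 1.92 and then -0.62. SEPTIN5, a cytoskeletal GTPase, changed by 2.61 and then -0.27, and it shares its strand and locus with ENSG00000284874.1, so these are not independent. VASN also overlaps annotated genes on the opposite strand. VASN, LFNG and SEPTIN5 rose in the earlier hour and fell in the last, while ATF3 fell in both, by 2.27 and 1.46 on the log2 scale. The fall of SEPTIN5 in the last hour was called in 13 of 22 alternatives, against all 22 for VASN and LFNG. FKBP5 rose in both hours, by 1.26 and 1.15, and the difference was -0.09 (edgeR adjusted p = 0.787).

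**Figure D3:**
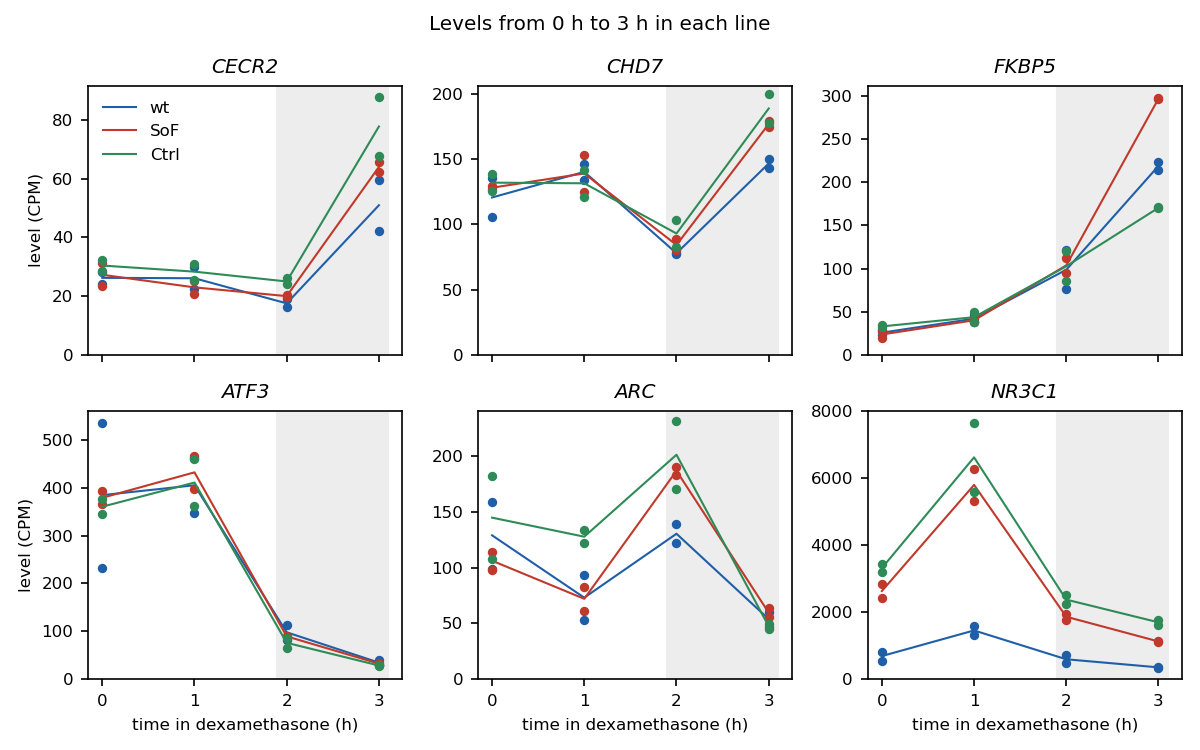
Levels of CECR2, CHD7, FKBP5, ATF3, ARC and NR3C1 at 0, 1, 2 and 3 h in each line, in CPM on a linear axis from 0, 1 point per library with lines through the means of 2. CECR2 and CHD7 are higher at 3 h than at 2 h, and FKBP5 climbs at both steps.

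The next question was which gene groups took part, and each group is described by its members called beside the background of 9.79% rising and 8.42% falling. A share near these does not set a list apart. Of 36 tested GR targets, 7 rose (19.4%) and 7 fell (19.4%), and the median log2 change was -0.01. The number rising was 3 without the SoF line and 4 with all 24 libraries in 1 fit. FKBP5, the chaperone of the receptor that restrains it (chr6:35573585-35728583, hg38), went from 75.6, 103.6 and 121 CPM to 169.9, 219 and 298 CPM, with a log2 change of 1.15 (SE 0.13, edgeR adjusted p = 3.23e-06). ZBTB16, a transcription repressor, went from 5.39, 6.80 and 10.1 CPM to 8.49, 14.9 and 29.5 CPM, a log2 change of 1.16 (SE 0.13), with overlap of the groups. The 5 other rising members were IP6K3, FOXO1, CEBPD, BIRC3 and TNS4. PER1, a clock repressor, went from 296, 408 and 425 CPM to 177, 227 and 265 CPM, a log2 change of -0.74 (SE 0.09). DUSP1, a phosphatase of p38 and JNK, went from 879, 1125 and 1510 CPM to 423, 722 and 864 CPM, a log2 change of -0.78 (SE 0.10). The highest 3 h library lay below the lowest 2 h library in both, and CRISPLD2, GADD45B, ZFP36, LCN2 and NFKBIA fell as well. At 0, 1, 2 and 3 h the median was 107, 280.5, 408 and 227 CPM in PER1. In DUSP1 it was 1121, 1555, 1125 and 722 CPM. At 3 h PER1 thus stood above its 0 h median and DUSP1 below its own. Of the 22 GR targets not called, SGK1, KLF9, TSC22D3 and PDK4 are well-known ones.

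The promoters of PER1 and DUSP1 are shown as targets of GR that fell between 2 h and 3 h. The PER1 window lies at chr17:8152405-8152654 on the minus strand, inside the longer GENCODE gene model, and the DUSP1 window at chr5:172771196-172771445 on the minus strand (RefSeq, GRCh38.p14). Capitals mark motif matches.
PER1: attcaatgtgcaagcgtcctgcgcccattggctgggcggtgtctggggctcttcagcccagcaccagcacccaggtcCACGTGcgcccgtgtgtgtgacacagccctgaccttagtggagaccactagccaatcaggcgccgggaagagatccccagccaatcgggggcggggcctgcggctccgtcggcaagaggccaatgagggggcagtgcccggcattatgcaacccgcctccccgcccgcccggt
DUSP1: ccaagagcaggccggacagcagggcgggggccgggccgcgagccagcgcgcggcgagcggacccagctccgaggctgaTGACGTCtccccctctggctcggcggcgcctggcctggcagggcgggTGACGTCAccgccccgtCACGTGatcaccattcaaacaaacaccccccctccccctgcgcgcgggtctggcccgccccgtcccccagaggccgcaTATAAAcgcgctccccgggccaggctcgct
PER1 held an E-box 173 to 168 bases before the start. DUSP1 held the cyclic AMP core at 172 to 166 bases and on both strands at 125 to 118 bases, an E-box at 108 to 103 bases and a TATA box at 30 to 25 bases before the start. No glucocorticoid element matched in these windows, which says only that those letters are not there.

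Immediate-early genes, which respond within minutes to signals, fell together. Of 29 tested, 25 fell (86.2%) and 0 rose by edgeR, with 0 rising before adjustment at p under 0.05 and 0 in DESeq2, and 1 rose without replicate 2 of wt at 2 h. The median log2 change was -0.85, and in 17 all 6 libraries at 3 h were below all 6 at 2 h. KLF10, a TGF-beta-induced repressor, went from 646, 785 and 967 CPM to 199, 269 and 362 CPM, a log2 change of -1.52 (SE 0.13, edgeR adjusted p = 1.80e-07). NR4A2, an orphan nuclear receptor, had a log2 change of -1.11 (SE 0.10). The remaining members were chosen after their values were seen. EGR1 ranged from 315 to 814 CPM at 2 h and 132 to 229 CPM at 3 h, a log2 change of -1.90. EGR2, FOSB and FOS, also transcription factors, had log2 changes of -2.20, -1.76 and -1.04, MYC of -0.48 and JUNB of -0.67. JUN, MCL1, FOSL2 and CCN2 were not called. The epithelial markers that fell, including KRT8 and CDH1, moved the same way, and their part was not tested.

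SRF and actin genes fell in 17 of 22 (77.3%), with a median log2 change of -0.50. In edgeR 0 rose, also before adjustment (0 at p under 0.05), and in DESeq2 0 rose. CNN1, calponin, went from 13.2, 24.6 and 29.4 CPM to 4.58, 8.81 and 11.7 CPM, a log2 change of -1.45 (SE 0.15). VCL, vinculin of focal adhesions, went from 316, 444 and 540 CPM to 161, 231 and 244 CPM, a log2 change of -1.05 (SE 0.11), and it spans 126 kb. LIMA1, an actin-bundling protein, had a log2 change of -0.97, and ACTN1, alpha-actinin, of -0.58. ACTB and TPM1 had log2 changes of -0.28 and -0.03 and were not called. Of 24 YAP and TGF-beta targets 4 rose (16.7%) and 6 fell (25%). LTBP2, a matrix protein that binds latent TGF-beta, stood at 0.80, and PMEPA1, an inhibitor of TGF-beta signalling, at 0.58. NUAK2, a kinase, stood at -1.16 and CCN1, a matricellular protein, at -0.77. Without the SoF line, without the Ctrl line or with all 24 libraries in 1 fit, 3 of these targets fell.

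NF-kB and cytokine genes fell in 14 of 23 (60.9%) and rose in 2 (8.7%), with a median log2 change of -0.49. Without the Ctrl line 9 fell, and without the SoF line 0 rose. RELB, a subunit of NF-kB, went from 73.5, 83.4 and 111 CPM to 37.3, 42.1 and 49.1 CPM, a log2 change of -1.03 (SE 0.09, edgeR adjusted p = 4.97e-07). NFKBIE and TNFAIP3, both inhibitors of the pathway, had log2 changes of -0.90 (SE 0.10) and -0.88 (SE 0.10), and PTGS2, cyclo-oxygenase 2, of -0.86 (SE 0.11). Median levels at 0 h and 3 h were 45.2 and 42.1 CPM in RELB and 275 and 283 CPM in TNFAIP3. They were 94.8 and 52.9 CPM in NFKBIE and 75.4 and 7.29 CPM in PTGS2. At 3 h RELB and TNFAIP3 thus stood near their 0 h medians, and NFKBIE and PTGS2 below theirs. NFKBIA, which GR induces, stood at -0.49. Of 19 ERK feedback genes, 7 fell (36.8%) and PHLDA1 rose (5.26%). The number rising was 2 without replicate 1 of Ctrl at 2 h, and 0 without the wt line or the SoF line. SPRY2 and IER3 had log2 changes of -0.92 and -0.94, and DUSP8, another phosphatase like DUSP5, went from 37.1, 45.4 and 61.4 CPM to 17.4, 24.7 and 29.3 CPM, while the median of the list was 0.07.

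**Figure D4:**
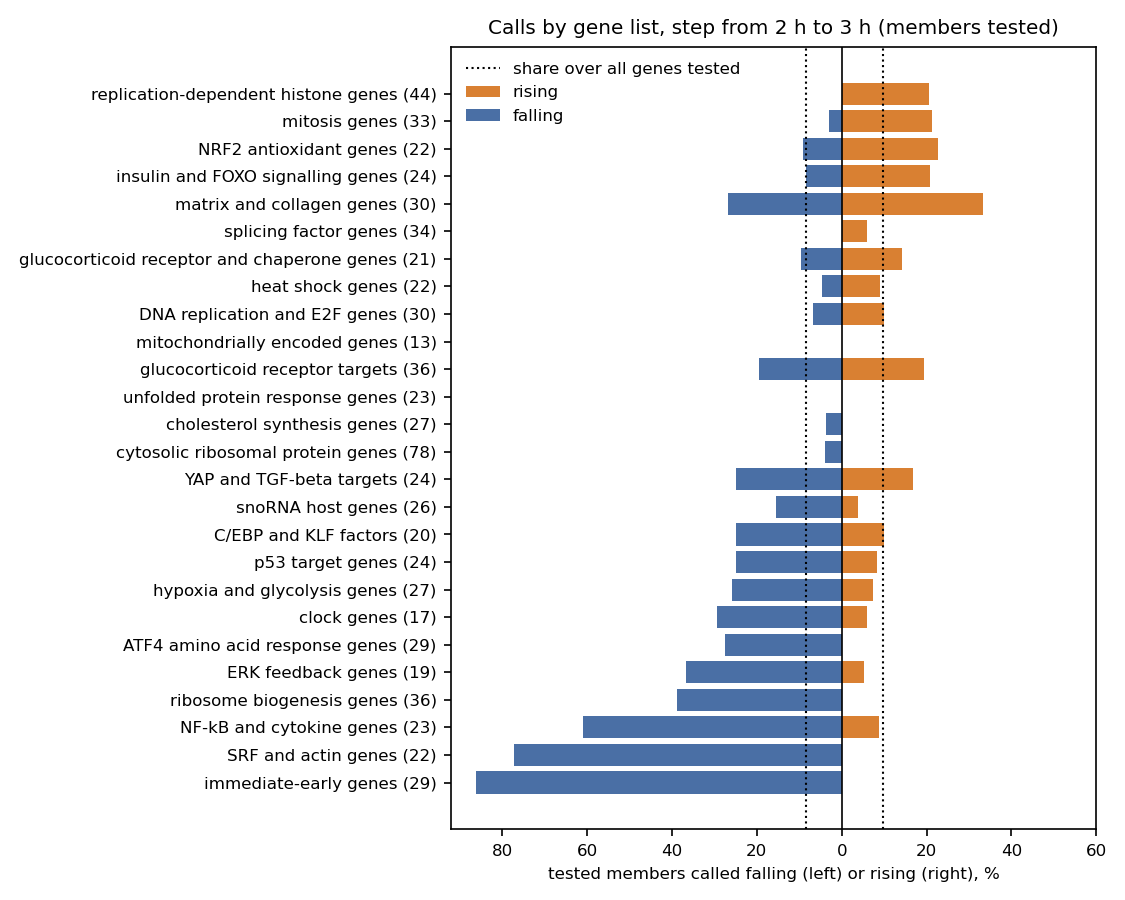
Share of the tested members of each of 26 gene lists called falling (left) or rising (right) between 2 h and 3 h, in %, with the number tested beside the name. Dotted lines mark the shares over all tested genes, 8.42% falling and 9.79% rising, and immediate-early genes reach 86.2% falling.

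Of 29 ATF4 targets 8 fell (27.6%) and 0 rose by edgeR (2 before adjustment at p under 0.05, 0 in DESeq2). DDIT3, a stress factor, stood at -0.64 (SE 0.09), ATF5 at -0.55 and MTHFD2, a folate enzyme, at -0.34. The number rising was 2 without replicate 2 of wt at 2 h and 1 without replicate 2 of wt at 3 h, and 4 fell without the SoF line. STC2, a secreted glycoprotein, was near the detection limit, between 0.648 and 1.92 CPM at 2 h and 0.149 and 0.764 CPM at 3 h. Hypoxia and glycolysis genes fell in 7 of 27 (25.9%), with VEGFA at -0.68, PFKFB3 at -0.41 and HK2 at -0.65 beside SLC2A1. In this list 2 rose (7.41%), PFKFB4, a regulator of glycolysis, at 0.49 and GPI, a glycolytic enzyme, at 0.22. Only 1 rose when a single SoF library, or replicate 2 of Ctrl at 2 h or 3 h, was left out, and 3 fell without the Ctrl line. Clock genes fell in 5 of 17 (29.4%), among them CRY1 at -0.81 and BHLHE40 at -0.44, and NPAS2 alone (5.88%) rose, by 0.72. Without the Ctrl line 2 clock genes fell, and 2 rose without it or without replicate 1 of Ctrl at 3 h. Of 20 C/EBP and KLF factors, 2 rose (10%) and 5 fell (25%), with KLF2 at -0.80, KLF11 at -0.48 and KLF16 at -0.59 beside KLF10. Of these factors 0 rose without the SoF line, the Ctrl line or the replicate 2 libraries. NRF2 genes rose in 5 of 22 (22.7%) and fell in 2 (9.09%). ME1, malic enzyme, stood at 0.92 (SE 0.08), NQO1 at 0.29 and GCLC, which limits glutathione synthesis, at 0.27. The falling members were ABCC2, an export pump, at -0.45 and SQSTM1, an autophagy receptor, at -0.26. Both calls were lost without replicate 2 of wt or of SoF at 3 h, and the number falling was 1 without any other single library except replicate 2 of SoF at 2 h, while 2 members rose without the SoF line. PFKFB4, GPI, ABCC2 and SQSTM1 were chosen after their values were seen. Of 23 unfolded protein response genes and 13 mitochondrially encoded genes, edgeR called 0, DESeq2 called 0, and 0 reached p under 0.05 before adjustment. In the first list 1 fell without replicate 1 of wt at 2 h, and in the second 1 fell without the replicate 2 libraries. Of 22 heat shock genes 2 rose (9.09%, near the background) and HSPB8 fell (4.55%). The risers were the paralogs HSPA1A at 0.54 and HSPA1B at 0.49, which may share reads. The number rising was 4 without replicate 1 of wt at 3 h, 0 without the SoF line and 6 with no low-count filter. Insulin and FOXO genes rose in 5 of 24 (20.8%) and fell in 2 (8.33%), and 4 fell without replicate 1 of wt at 2 h and 2 rose without the SoF line. TRIB2 stood at 0.47, ARRDC3, an arrestin-like regulator, at 0.60 and TRIB1, a pseudokinase, at -0.86. The median of ARRDC3 was 123 CPM at 3 h, still below its 188 CPM at 0 h. Of 24 p53 targets 2 rose (8.33%) and 6 fell (25%), and 3 fell with all 24 libraries in 1 fit. TP53INP1 stood at 0.45, BTG2 at -0.68, PLK3 at -0.47 and GADD45A at -0.41.

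Of 30 matrix and collagen genes 10 rose (33.3%) and 8 fell (26.7%). COL6A3, a collagen VI chain, went from 153, 275 and 311 CPM to 434, 653 and 783 CPM, a log2 change of 1.38 (SE 0.13, edgeR adjusted p = 6.35e-07), and COL6A1 and COL6A2 rose as well. LAMB1, a laminin chain, had a log2 change of 0.74 (SE 0.07), ADAMTS1, a metalloprotease, of -1.44 (SE 0.17) and COL12A1 of -0.61 (SE 0.08). Without replicate 1 of SoF at 3 h or without the Ctrl line, 5 members fell instead of 8, and the number rising was 3 without the SoF line and 5 without the Ctrl line. Ribosome biogenesis genes fell in 14 of 36 (38.9%), with a median log2 change of -0.17, and 0 rose in edgeR (0 before adjustment at p under 0.05) or in DESeq2. NOP16, a nucleolar protein, had a log2 change of -0.48 (SE 0.07), RRP9 of -0.42, POLR1C, a subunit of RNA polymerase I, of -0.30, and FBL, fibrillarin, of -0.29. Without replicate 1 of SoF at 3 h or of Ctrl at 3 h, 8 or 9 members fell instead of 14. With all 24 libraries in 1 fit 2 fell, without the SoF line 7, without the Ctrl line 5 and without the replicate 1 libraries 6, and 1 rose without replicate 2 of wt at 2 h. Of 78 cytosolic ribosomal protein genes 3 fell (3.85%), RPL38, RPL11 and RPS10, with log2 changes of -0.20, -0.18 and -0.20. The number falling was 0 without either wt library at 3 h, replicate 1 of SoF at 2 h, replicate 2 of SoF at 3 h, or replicate 1 of Ctrl at 2 h or 3 h, and 1 without either wt library at 2 h or replicate 1 of SoF at 3 h. It was 5 without replicate 2 of Ctrl at 3 h, 16 without the replicate 2 libraries and 0 without the replicate 1 libraries. The snoRNA host genes fell in 4 of 26 (15.4%), with SNHG4 at -0.61 and SNHG15 at -0.39, and in 2 without the SoF line, while SNHG14 rose (3.85%).

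Of 33 mitosis genes 7 rose (21.2%) and ECT2 fell, with TOP2A, topoisomerase II alpha, at 0.26, CENPA, the centromeric histone, at 0.37 and KIF20A, a kinesin, at 0.45. The number rising was 3 without replicate 2 of wt, of SoF or of Ctrl at 3 h and 4 without replicate 1 of Ctrl at 2 h. It was 13 without the replicate 1 libraries and 0 without the replicate 2 libraries, the SoF line or the Ctrl line. The number falling was 2 without replicate 2 of wt at 2 h, replicate 1 of wt at 3 h or replicate 1 of Ctrl at 2 h. Replication-dependent histone genes, a family of near-identical copies whose reads may be split, rose in 9 of 44 (20.5%) and fell in 0 in edgeR (1 before adjustment at p under 0.05, 0 in DESeq2), with H2BC13 at 0.48, H2AC15 at 0.60, H2BC14 at 0.40 and H2BC7 at 0.43. The number rising ranged from 0 without the SoF line to 24 with no low-count filter, and was 20 without the replicate 1 libraries and 2 without the replicate 2 libraries. Leaving out single libraries, it was 2 without replicate 2 of SoF at 3 h, 15 without replicate 1 of wt at 3 h, 14 without replicate 2 of Ctrl at 2 h, 3 without replicate 2 of Ctrl at 3 h and 4 without either SoF library at 2 h, replicate 2 of wt at 3 h or replicate 1 of Ctrl at 2 h. Of 30 DNA replication genes 3 rose (10%), among them CCNE2 at 0.39 and E2F7 at 0.24, and 2 fell (6.67%), POLE at -0.31 and MCM7 at -0.23. Both shares lay near the background. Only 1 rose without replicate 2 of SoF at 2 h, either Ctrl library at 2 h or replicate 1 of Ctrl at 3 h, and only 1 fell without replicate 1 of wt or of SoF at 2 h or 3 h. Without the SoF line 0 rose, and the number falling was 0 without the replicate 1 libraries and 4 without the replicate 2 libraries. Of 34 splicing factor genes, the kinases SRPK2 and SRPK1 rose (5.88%), both by 0.27. The call of SRPK1 was lost in 10 of 22 alternatives, among them without replicate 1 of wt at 2 h, replicate 1 of SoF at 2 h, either SoF library at 3 h or replicate 2 of Ctrl at 2 h. The call of SRPK2 was lost in 2, without the replicate 1 libraries and without the Ctrl line. Of 27 cholesterol synthesis genes TM7SF2 (3.7%) fell, by 0.35. The call of TM7SF2 was the only one in its list, and 0 members fell without replicate 1 of wt at 2 h or replicate 2 of wt or SoF at 3 h, while 3 fell without replicate 2 of SoF at 2 h and 2 without replicate 1 of SoF at 3 h. In this list 7 rose without the replicate 2 libraries and 1 without replicate 2 of wt at 2 h or of wt or SoF at 3 h.

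NR3C1, the receptor gene itself (chr5:143277931-143435512, hg38), counts its endogenous reads together with those of the introduced copy. It ranged from 469 to 2515 CPM at 2 h and from 334 to 1764 CPM at 3 h, and these ranges overlapped. Its group means went from 592 to 350 CPM in wt, from 1863 to 1124 CPM in SoF and from 2374 to 1696 CPM in Ctrl. The log2 change was -0.65 (SE 0.09, edgeR adjusted p = 6.14e-05), after -1.49 between 1 h and 2 h. Of 21 genes of the receptor, its chaperones and coregulators, 3 rose (14.3%) and 2 fell (9.52%), beside 9.79% and 8.42% over all tested genes. The rising members included FKBP5 and CARM1, a coactivator methyltransferase, at 0.41, and the falling ones were NR3C1 and CREBBP, an acetyltransferase coactivator, at -0.25. Without replicate 2 of wt at 2 h 5 rose, and without the SoF line 1 rose.

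The step was then taken in each line alone, 2 libraries against 2, with the spread pooled over 6 groups. In wt 425 of 22020 genes were called (1.93%), in SoF 1235 (5.61%) and in Ctrl 591 (2.68%), of which 270, 729 and 292 rose (1.23%, 3.31% and 1.33%) and 155, 506 and 299 fell (0.704%, 2.3% and 1.36%). These counts depended on single libraries. When a 2 h library of wt was left out, its count became 187 (replicate 1) or 694 (replicate 2), and it became 48 when replicate 2 of wt at 3 h was left out. In SoF, leaving out replicate 2 at 2 h gave 491, and leaving out the 3 h libraries in turn gave 352 (replicate 1) and 452 (replicate 2). In Ctrl, the same omissions gave 134, 156 and 252. The lines share no libraries, but they come from the same parental cells and were fitted together, so their agreement is only a description. Of the 425 genes called in wt, 98.8% had the same sign in SoF and 99.5% in Ctrl. Of the 1235 called in SoF, 97.1% had the same sign in wt and 99.1% in Ctrl. Across all 22020 genes 65.5% to 72.3% had the same sign between pairs of lines, and 229 genes were called in all 3 lines, 148 rising and 81 falling.

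A difference in the step between lines was tested in 22020 genes, and edgeR called 0 for any interaction (0% of genes), with 636 at unadjusted p under 0.05 and 2 in DESeq2. The pairwise counts were 0 for SoF against wt (965 unadjusted, 0 by DESeq2), 0 for Ctrl against wt (723 unadjusted, 2 by DESeq2) and 0 for SoF against Ctrl (472 unadjusted, 0 by DESeq2). With 2 libraries per group, this does not show that the steps were alike. Among the 20 leading genes, the smallest unadjusted interaction p in edgeR was 0.000174, for PPARGC1B, whose log2 step in wt, SoF and Ctrl was 1.81, 3.37 and 2.84. ARC stepped by -1.25 in wt, -1.65 in SoF and -2.07 in Ctrl. FKBP5 stepped by 1.18 in wt, 1.52 in SoF and 0.75 in Ctrl. No adjusted interaction p among the named genes was below 1. All 20 leading genes were called in each line, which their choice by smallest p and the same sign in all lines favoured.

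**Figure D5:**
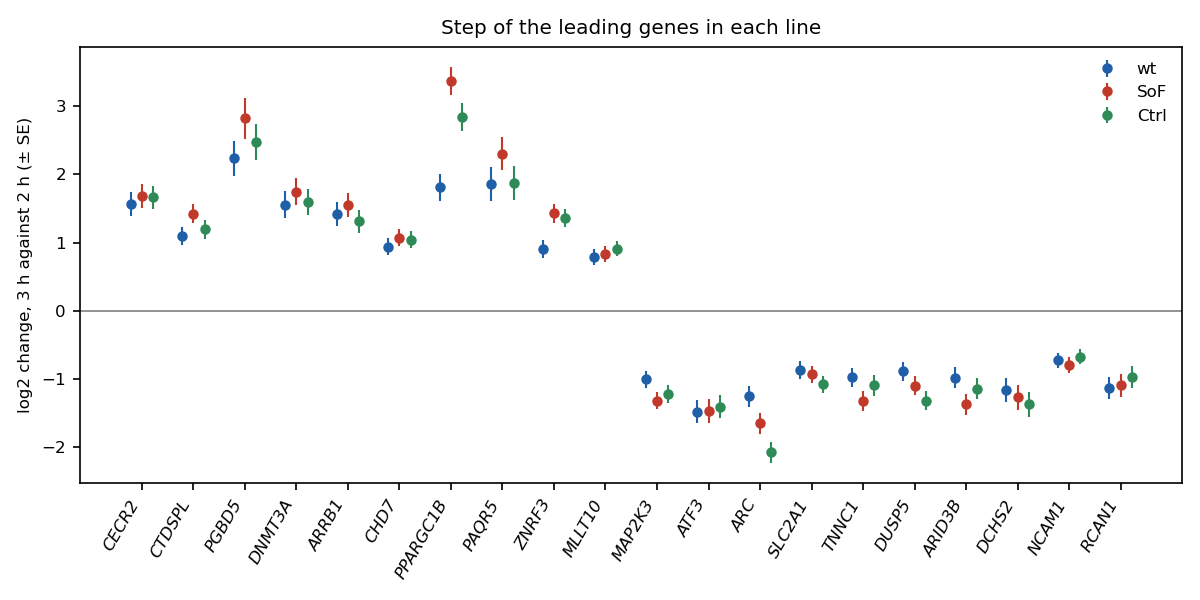
Log2 change from 2 h to 3 h of the 10 rising and 10 falling genes in wt, SoF and Ctrl, with bars for the standard error (2 libraries against 2). Each gene has the same sign in the 3 lines because the choice of genes required it, and PPARGC1B ranges from 1.81 in wt to 3.37 in SoF.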

How the data were processed

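The authors took molecular barcodes from the reads and removed duplicates with UMI-tools 1.1.2. They trimmed with Trim Galore 0.6.6, mapped to hg38 with STAR 2.7.3a, and ran featureCounts over exons (GENCODE 39). The deposited values are those raw counts. Symbols came from GENCODE release 44 (61369 of 61533 identifiers matched, 99.7%). Here the 12 libraries were fitted in edgeR 4.0.16 (R 4.3.3, limma 3.58.1) with TMM, filterByExpr (minimum count 10, minimum total 15), quasi-likelihood tests and Benjamini-Hochberg adjustment, with line plus time as terms, or 1 term per group, or 18 libraries for the earlier step. The scripts were tested on simulated data. DESeq2 1.42.0 was the other tool. Standard errors are the log2 change over the square root of the F statistic.

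Named genes were the 10 rising and 10 falling protein-coding genes and the 3 rising and 3 falling long noncoding genes with the smallest p among called genes of the same sign in all 3 lines, NR3C1, up to 4 members per list with the smallest p, and 4 genes in each direction of the contrast of steps. Members and lists were chosen with earlier results of these data known. Promoters were taken from RefSeq (GRCh38.p14). As 78.7% of tested protein-coding genes had one, motif shares of called genes are not given.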

Additional observations from a re-analysis of the deposited data

How the results depend on the processing

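The 20 leading genes were called in all 22 alternatives, which their choice by smallest p in these same libraries favoured. Immediate-early, SRF and NF-kB lists kept more falling than rising members. For the step, leaving out 1 library gave 3006 to 4370 genes called (1666 to 2361 rising, 1323 to 2009 falling, 559 to 723 rising at 100 to 300 kb). Without the replicate 1 libraries it gave 1842 (1013 rising, 829 falling, 382 at 100 to 300 kb), without the SoF line 1568 (853, 715 and 381), without the Ctrl line 2064 (1182 rising, 882 falling), with 24 libraries in 1 fit 2366 (1284 rising, 1082 falling) and with a log2 change of at least 1, 359 (142 rising, 217 falling, 60 at 100 to 300 kb).

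For the later against the earlier step, leaving out 1 library gave 5085 to 7069 (2083 to 3164 higher, 3002 to 3905 lower). Without the replicate 1 libraries it gave 2926 (1116 higher, 1810 lower), without replicate 2 it gave 1902 higher, and 24 libraries in 1 fit gave 1772 higher. Within lines, leaving out 1 library gave 48 to 694 in wt, 352 to 1578 in SoF and 134 to 782 in Ctrl, 24 libraries in 1 fit gave 161, 599 and 271, and no low-count filter gave 944 in wt and 1029 in Ctrl. Differences between lines then gave 38 (any), 22 (SoF-wt), 27 (Ctrl-wt) and 6 (SoF-Ctrl), while leaving out 1 library gave 0 to 4, 0 to 8 and 0 to 3 for the first 3. DESeq2 gave 2 (any) and 2 (Ctrl-wt). The cause of these changes was not tested.

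Replicate numbers were not used to pair the samples in the main fits, and whether they mark pairs is unknown. Correlations of deviations were 0.00449 in wt, 0.164 in SoF and 0.247 in Ctrl, each positive, a hint from the data and not the design. With a replicate block the step gave 4509 genes, the later against the earlier step 7581, wt 883, SoF 2013, Ctrl 1010 and Ctrl-wt 1. MT-ND3 ranged from -0.29 to 0.0096 and DNAJB11 from -0.34 to 0.10 on the log2 scale between the fits without replicate 1 or replicate 2, a change of sign, and neither was called with all libraries. A fit without a whole replicate number could not be made for single lines, which then have no residual degrees of freedom. Counts come from 2 libraries per group, and depth limits low genes such as STC2.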
